A study of Mus musculus with 22 samples.

Results

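The 37 genes described here are those of the 55341 in the deposited count tables whose symbols begin with Psma, Psmb, Psmc or Psmd and a digit, the mouse names of proteasome subunits. The 3 inducible subunits Psmb8, Psmb9 and Psmb10 and all pseudogene symbols were left out, which removed 7 symbols. By function the 37 comprise 16 subunits of the core particle (8 of the alpha ring, 8 of the beta ring), 17 subunits of the regulatory particle, and 3 chaperones of its assembly that carry Psmd symbols. The last is Psmc3ip, a meiotic recombination factor named for binding a subunit and not itself one, which was counted among the 37 and kept out of the subcomplexes.

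The study sequenced mRNA from the striatum of 6 wild-type mice and 5 mice labelled FMRP mutant, a mouse model of fragile X syndrome in which the RNA-binding protein FMRP is affected. All 11 animals carried Rpl10a, a protein of the large ribosomal subunit, fused to EGFP in neurons that express the dopamine receptor Drd1. Each animal gave a pulldown of tagged ribosomes (IP; groups WT_IP and KO_IP) and a library of the lysate it was taken from (input; groups WT_Total and KO_Total), 22 libraries in all. The series asks how translation in these D1 neurons changes in the mutant. The labels give no age, sex, strain or litter, and call the cell type of the input D1 neurons as well, although input holds RNA of all striatal cells. Tagging follows Drd1, so the IP is enriched for, not limited to, mRNA on ribosomes of Drd1-expressing cells.

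Total counts ranged from 9375611 to 82376192 in IP and from 25164548 to 43276230 in input. Of input counts 25.1% to 53.2% were mitochondrial ribosomal RNA, against 0.420% to 0.904% in IP. Levels are CPM, counts relative to library size scaled over all 22 libraries. Fmr1, the targeted gene, stood at 70.1 to 108 CPM in WT_IP and 8.16 to 11.3 in KO_IP, and at 59.7 to 72.5 in WT_Total and 11.1 to 15.0 in KO_Total, so every library matched its genotype label. The summed level of 8 D1 markers was 2085 to 2658 CPM in WT_IP and 871 to 1221 in WT_Total. That of the 5 measured markers of D2 neurons, the other striatal projection neurons, was 45.5 to 78.4 and 772 to 1002. Markers of cortical excitatory neurons set animals 1 and 12 (wild type) and 3 and 9 (mutant) apart, with summed levels of 150.3 to 309 CPM in IP against 66.1 to 104 in the other animals. Mutant animal 9 was highest in input, at 673 CPM.

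The proteasome degrades proteins marked with ubiquitin. Its core is a barrel of stacked alpha and beta rings. The alpha rings gate the entrance, and Psmb5, Psmb6 and Psmb7 are the beta subunits that cut peptide bonds. The regulatory particle caps the barrel. Its base holds the ATPases Psmc1 to Psmc6, which unfold substrates, and the scaffolds Psmd1 and Psmd2 and the ubiquitin receptor Psmd4. Its lid includes Psmd14, which removes ubiquitin chains from substrates. In neurons, proteasomes turn over synaptic proteins, and the transcription factor Nfe2l1 raises subunit genes together when proteasome activity drops.

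The 37 genes are spread over 16 chromosomes, with Psmb5 and Psmb11 close neighbours on chromosome 14, and the sequence around each start was searched for shared motifs. RefSeq promoter windows (GRCm38.p6, 250 bases before to 50 after the start) were matched by symbol for 30 of the 37 genes. The antioxidant response element, the kind of site that Nfe2l1 and its relative Nfe2l2 bind, was searched as TGACNNNGC on both strands. It occurred in 5 of 30 genes (15.6% of their windows), against 12.4% of all 32851 windows and 14% of windows of genes tested here. The 5 were Psmb5, Psmb6, Psmc6, Psmd12 and Psmd9. The match in the chaperone Psmd9 lies 31 bases before the start. Shown are the catalytic subunits Psmb5 (chr14:54618018-54618058, minus strand) and Psmb6 (chr11:70525332-70525356, plus strand), with matches at 47 and 9 bases before the start and the element in capitals.
Psmb5: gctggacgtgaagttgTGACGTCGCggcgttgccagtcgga
Psmb6: ggcggactaaagagagTGACGGAGC

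A second motif, CCGGAA on both strands, the core bound by transcription factors of the ETS family, occurred in 16 of 30 genes and 53.1% of their windows. The share was 14.9% over all windows and 24.2% over windows of tested genes. Among subunits with a window it occurred in 10 of 14 of the regulatory particle and 4 of 12 of the core. No match of this motif overlapped one of the first. Both motifs were chosen with the values known, and a match is a description of the sequence, not a site shown to be bound. The stretches below come from 3 regulatory subunits that were higher in IP in both genotypes (below), Psmd2 (chr16:20651554-20651591, plus strand), Psmd6 (chr14:14120969-14121006, minus strand) and Psmd12 (chr11:107479496-107479527, plus strand). Capitals mark CCGGAA or its reverse complement.
Psmd2: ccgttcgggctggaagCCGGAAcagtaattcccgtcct
Psmd6: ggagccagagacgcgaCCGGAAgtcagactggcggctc
Psmd12: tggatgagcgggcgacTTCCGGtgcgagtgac

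Levels were compared between genes per kilobase of annotated exon. Of the 36 subunits and chaperones, 34 were expressed at testable levels, and their mean CPM per kilobase over all libraries ran from 97.8 for Psma6 to 1.73 for Psmd9. Psma6, of the alpha ring, was followed by Psmb4, a non-catalytic beta subunit (92.8), and Psmc5, a base ATPase (90). In WT_IP their means were 90 ± 9.43, 85.5 ± 8.0 and 92.1 ± 5.52 CPM per kilobase (SD, n = 6), and their ranges overlapped there and in both input groups. In KO_IP Psma6 (96.0 to 117) lay above Psmc5 (83.0 to 95.7), and Psmb4 overlapped both. The lowest were the chaperone Psmd9, the chaperone Psmd5 (7.88) and Psmd3, a lid scaffold (7.98). Psmd5 and Psmd3 overlapped in all 4 groups, for example 8.58 ± 0.80 and 8.36 ± 0.88 in KO_IP (SD, n = 5). The order was alike in the 4 groups, with Spearman's rho between 0.953 and 0.992 over the 34 genes, as a description across genes. Core subunits had a median of 35 CPM per kilobase in WT_IP and 33.4 in WT_Total. Regulatory subunits had 27.1 and 21.6. With the length of the principal transcript in place of all exons, an alternative added after seeing the data, Psmb4 ranked first. Psma7 moved from rank 13 to 3 and Psmc5 from 3 to 5. At the low end Psmd3 moved from rank 32 to 30 of 36 and Psmd10 from 31 to 33.

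The remaining 2 subunits were near 0 and below the filter on low counts. Psma8, the testis form of an alpha subunit, averaged 0.115 CPM over all libraries, with at most 26 reads in any. Psmb11, the thymus form of a beta subunit, averaged 0.051 CPM, with at most 15 reads.

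IP was compared with input to see which proteasome mRNAs were over-represented on D1 ribosomes. In wild type, 12 of 35 tested members were higher in IP and 0 were lower, at an adjusted p under 0.05 (edgeR quasi-likelihood test, Benjamini-Hochberg over all genes tested). The background was high: 21.8% of the 17311 genes tested were called higher and 27.8% lower. The calls fell unevenly over the complex. In the regulatory particle 9 of 17 subunits rose, with a median log2 fold change of 0.21, and in the core 2 of 14, with a median of -0.05, beside -0.11 over all genes tested. The whole subcomplex difference is a description of these members, with no test over genes.

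With another scaling of the libraries (RLE), the split in wild type was 9 higher and 2 lower. Psmb5, Psmd11 and Psmd14 were no longer called, and the beta subunits Psmb1 and Psmb4 were called lower. DESeq2 lost and gained the same members. Psmb1 was also called lower without animal 1 and with a filter of at least 1 CPM in at least 5 libraries. Psmb4 was called lower without animal 12, and both were without animal 4.

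**Figure D1:**
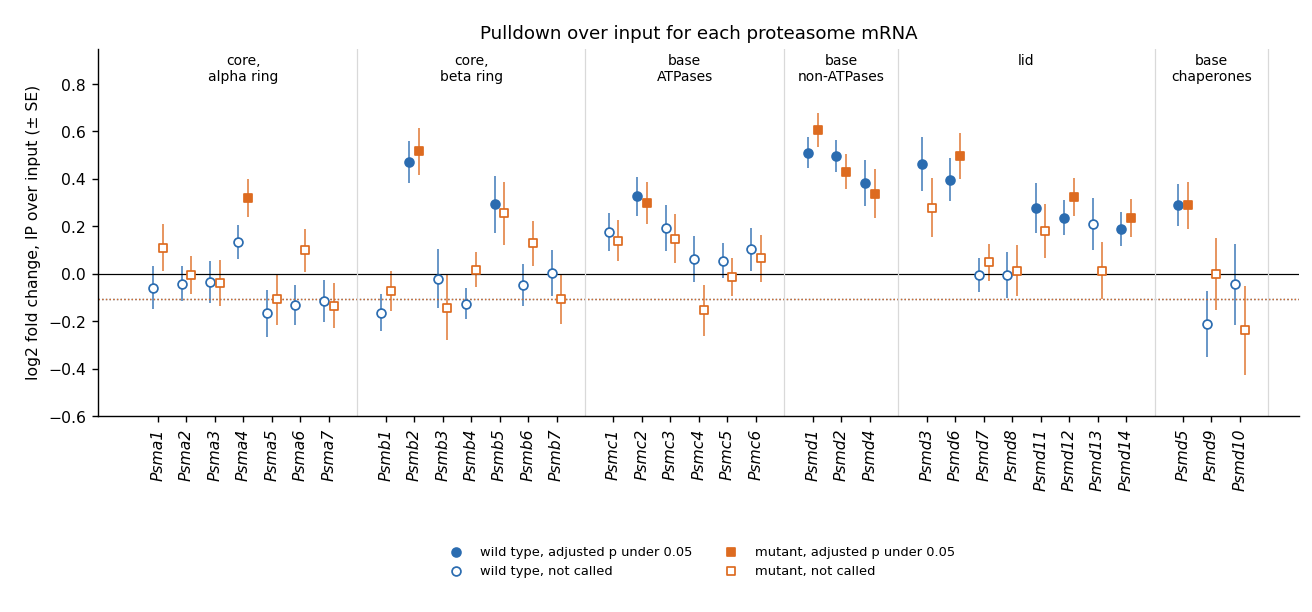
Log2 fold change of IP over input (y axis, ± SE) for each tested subunit and chaperone, by subcomplex, in wild type (circles) and mutant (squares), with called genes filled and the median of all genes tested as a dotted line. All 3 base non-ATPases are filled in both genotypes, at 0.34 to 0.61, while most of the core lies between -0.17 and 0.13.

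The base scaffolds Psmd1 and Psmd2 had the highest log2 differences in wild type. In the mutant Psmd1 was again highest, followed by the beta subunit Psmb2, the lid subunit Psmd6 and then Psmd2. Psmd1 is the platform that joins the base to the lid and to substrate receptors (ENSMUSG00000026229, chr1:86064387-86139151, GRCm38, 25 exons). It ranged from 177 to 223 CPM in WT_IP (median 195) and from 132 to 143 in WT_Total (median 137). In mutant animals 2, 3, 9, 10 and 11 it stood at 207, 174, 223, 197 and 196 CPM in IP and at 124, 131, 142, 130.0 and 129 in input. All IP libraries lay above all input libraries in both genotypes. The share of all genes that separate IP from input in this way is not given, so this and like separations below are values only. The log2 difference of Psmd1 was 0.51 ± 0.07 (SE, adjusted p = 2.4e-07) in wild type and 0.61 ± 0.07 (adjusted p = 7.8e-08) in the mutant. Of the exon bases of Psmd1, 7.61% overlap Gm21972 or Htr2b, and the library kit did not mark strand.

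Psmd2, the second large scaffold (ENSMUSG00000006998, chr16:20651652-20663414, 21 exons), ranged from 130.0 to 144 CPM in WT_IP (median 138) and from 84.6 to 107 in WT_Total (median 97.5). The mutant animals in the same order had 139, 116, 122, 139 and 123 CPM in IP and 90.1, 98.3, 88.1, 98.5 and 99.6 in input. Again IP and input did not overlap in either genotype. Psmd2 rose by 0.50 ± 0.07 (SE, adjusted p = 7.1e-07) in wild type and 0.43 ± 0.07 (adjusted p = 2.5e-05) in the mutant. Psmd4, the ubiquitin receptor, rose by 0.38 ± 0.10 and 0.34 ± 0.10. Its groups overlapped in both genotypes. WT_IP reached down to 49.1 CPM and WT_Total up to 49.8. Mutant animal 9 was lower in IP (44.4 CPM) than in input (50.6 CPM), and without animal 2 the mutant call was lost (adjusted p = 0.106, edgeR).

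Of the lid, 5 of 8 subunits rose in wild type and 3 of 8 in the mutant. Psmd6 (chr14:14112174-14120984) ranged from 70.1 to 89.1 CPM in WT_IP (median 76.9) and from 52.4 to 71.0 in WT_Total (median 58.2). In the mutant it stood at 85.0, 84.3, 81.5, 81.4 and 79.3 CPM in IP and 72.6, 56.1, 52.0, 60.5 and 50.5 in input, without overlap. It was 0.40 ± 0.09 higher in wild type and 0.50 ± 0.10 in the mutant, and every animal was higher in IP than in its own input. Psmd3 (chr11:98682554-98695979) was called in wild type, at 0.46 ± 0.11 (adjusted p = 0.0013), with 39.9 to 62.3 CPM in WT_IP (median 46.5) and 29.2 to 41.7 in WT_Total (median 34.7). Its groups overlapped, and 5 of 6 wild-type animals were higher in IP. In the mutant its difference was 0.28. Psmd12 rose by 0.24 and 0.32 in the 2 genotypes, and Psmd14, the deubiquitinase of the lid, by 0.19 and 0.23. Psmd11 rose by 0.28 in wild type. Psmd7 and Psmd8 were within 0.05 of 0 in both genotypes. The call of Psmd14 was lost in wild type without animal 1 or 4 and in the mutant without animal 3, and that of Psmd11 without animal 14.

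The 6 base ATPases, which form 1 ring, had log2 differences of 0.05 to 0.33 in wild type and -0.15 to 0.30 in the mutant. Psmc2 was called in both genotypes (0.33 ± 0.08 and 0.30 ± 0.09), and the other 5 in neither. With the replicate block, which pairs the IP and input of an animal, Psmc1 was called in wild type as well (0.18 ± 0.07, adjusted p = 0.0420, edgeR). Psmc4 had log2 differences of 0.06 (wild type) and -0.15 (mutant), and the median of the 6 was 0.14 and 0.10. The chaperone Psmd5, which holds ATPases during assembly, rose by 0.29 in each genotype. Its call was lost in wild type without animal 13 and in the mutant without animal 3 or 10. Psmd9 and Psmd10 were -0.21 and -0.04 in wild type and not called. Psmc3ip was not called, at 0.01 in wild type.

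**Figure D2:**
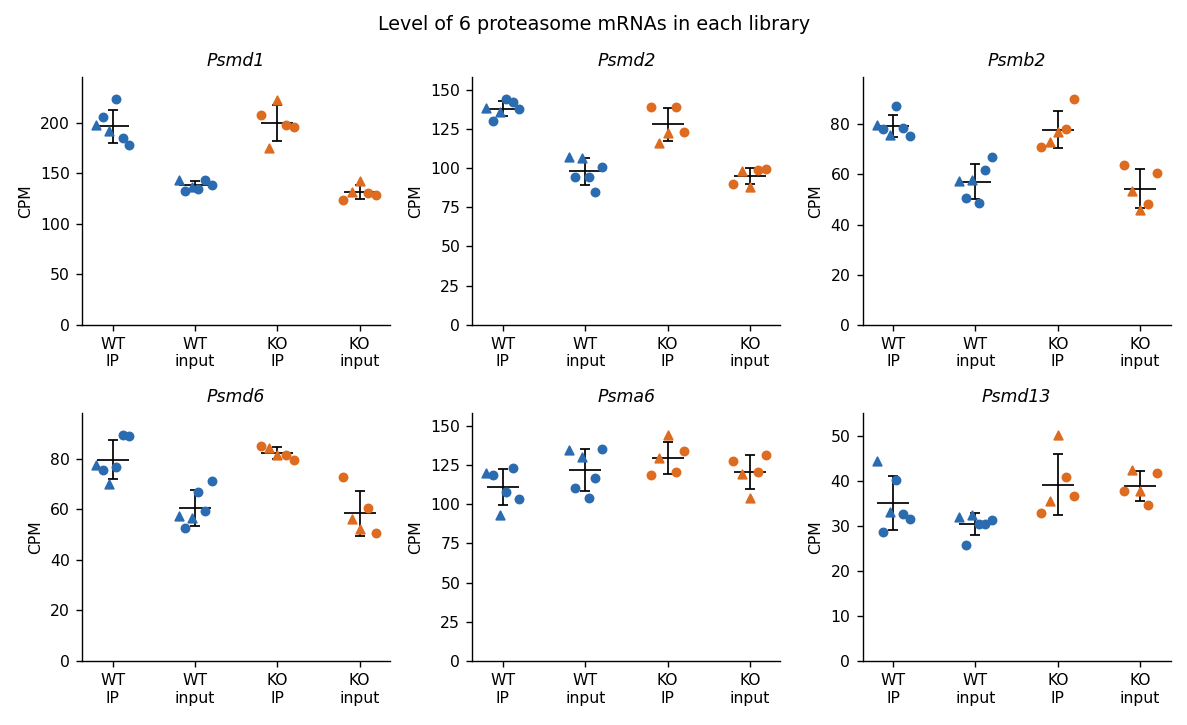
Level in CPM (y axis, from 0) of 6 proteasome mRNAs in every library of the 4 groups, with mean and SD as black bars, and triangles for the 4 animals with raised cortical markers. For Psmd1 and Psmd2 all IP points lie above all input points within a genotype. In KO_IP the triangles include the lowest and highest points of Psmd1 (174 and 223 CPM) and the lowest of Psmd2 (116 CPM).

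In the core, 1 subunit stood out. Psmb2, a non-catalytic beta subunit (ENSMUSG00000028837, chr4:126677630-126709714, 6 exons), ranged from 75.5 to 87.5 CPM in WT_IP (median 78.4) and from 48.5 to 67.0 in WT_Total (median 57.6). Mutant animals 2, 3, 9, 10 and 11 had 71.1, 73.0, 76.8, 78.3 and 90 CPM in IP and 63.7, 53.4, 45.9, 48.1 and 60.5 in input. The groups did not overlap in either genotype, and all 11 animals were higher in IP. The rise was 0.47 ± 0.09 (SE, adjusted p = 8.4e-05) in wild type and 0.52 ± 0.10 (adjusted p = 9.2e-05) in the mutant. Its 6 tested neighbours in the beta ring had log2 differences of -0.16 to 0.29 in wild type. Of these the catalytic Psmb5 was called (0.29 ± 0.12, adjusted p = 0.0444), with overlapping groups, 12.1% of its exon bases shared with Mir686, and a call in only 7 of 19 alternative settings. In the mutant it was not called, except with the replicate block (0.26 ± 0.10, adjusted p = 0.0326, edgeR). The alpha ring had 0 of 7 called in wild type, and 1 of 7 in the mutant. That 1 was Psma4 (0.32 ± 0.08, adjusted p = 0.0015), at 90.2, 91.6, 99.7, 96.5 and 92.1 CPM in KO_IP and 78.1, 69.5, 75.5, 81.6 and 72.0 in KO_Total, which did not overlap. In wild type it was 0.13 and not called.

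The mutant gave a like picture over the members as a whole. There 10 of 35 were higher in IP and 0 lower, beside 20.9% higher and 26.4% lower over all genes tested. In the regulatory particle 7 of 17 rose (median 0.18) and in the core 2 of 14 (median 0.01). The 9 called in both genotypes were 75% of the wild-type and 90% of the mutant calls: Psmb2, Psmc2, Psmd1, Psmd2, Psmd4, Psmd5, Psmd6, Psmd12 and Psmd14. The core median in the mutant was -0.04 with RLE scaling and -0.06 without the 4 animals with cortical markers, so its sign was not settled. The regulatory median stayed between 0.14 and 0.24 in all 19 alternatives in the mutant and between 0.15 and 0.25 in wild type. Of the 8 genes called in both that had a promoter window, 5 held CCGGAA, a share near that of the members as a whole (16 of 30), and 1 held the antioxidant response element.

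The same difference was read in single animals by averaging the log2 ratio of IP to input over the 14 core and the 17 regulatory subunits. The regulatory mean exceeded the core mean in 6 of 6 wild-type animals, by 0.24 ± 0.08 (SD, range 0.13 to 0.35), and in 4 of 5 mutants, by 0.14 ± 0.13 (SD, range -0.06 to 0.29). The exception was mutant animal 9, the animal with the highest cortical markers in input. In that animal the core averaged 0.16, the 6 ATPases -0.10 and the 3 non-ATPases 0.31. Wild-type animal 12 had a like ATPase mean of -0.11, with a core mean of -0.12 and a regulatory minus core difference of 0.20. Without the 4 animals with cortical markers the differences were 0.26 ± 0.10 (SD, n = 4) and 0.22 ± 0.06 (SD, n = 3). The part of the cortical RNA in the value of animal 9 was not tested.

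Within libraries, the mean log2 CPM of regulatory minus core subunits was 0.24 ± 0.09 in WT_IP and 0.16 ± 0.05 in KO_IP. In input it was 0.00 ± 0.04 in WT_Total and 0.02 ± 0.11 in KO_Total (SD, n = 6 and 5). The wild-type groups did not overlap. The KO_Total library of animal 9, at 0.20, lay among the KO_IP libraries (0.10 to 0.22), and the other 4 reached at most 0.02. Summed over subunits, the regulatory particle held 1571 ± 82.2 CPM in WT_IP and 1322 ± 85.0 in WT_Total, and the core 1135 ± 64.8 and 1163 ± 83.0 (SD, n = 6). In KO_IP and KO_Total the regulatory sums were 1588 ± 44.6 and 1351 ± 56.8 CPM, and the core sums 1228 ± 24.6 and 1186 ± 71.1 (SD, n = 5).

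**Figure D3:**
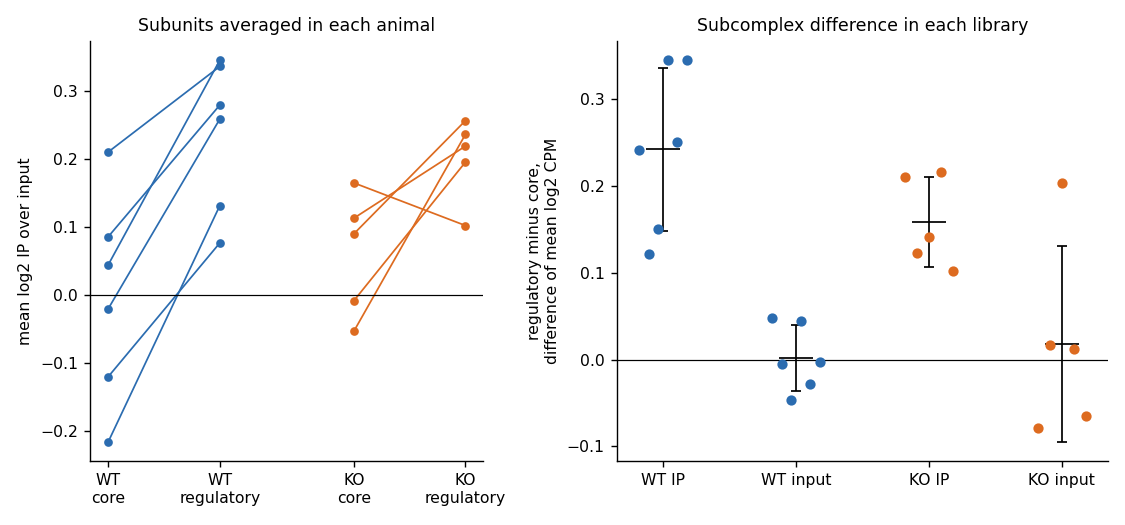
Left, mean log2 ratio of IP to input over core and over regulatory subunits (y axis), with 1 line per animal. Right, regulatory minus core mean log2 CPM (y axis) in each library, with mean and SD. The lines rise in all 6 wild-type animals and in 4 of 5 mutants, and in wild type the IP points (0.12 to 0.34) lie above the input points (-0.05 to 0.05).

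Subunits of the 2 subcomplexes differ in size, and this moved with the result. Coding length was 603 to 831 bp in the 14 core subunits (median 741) and 930 to 2859 bp in the 17 regulatory subunits (median 1254). Over the 34 subunits and chaperones, coding length and the log2 difference of IP to input had a Spearman's rho of 0.69 in wild type and 0.51 in the mutant, as a description across genes of the same libraries. Within the 14 core subunits rho was 0.04 and 0.07, and within the 17 regulatory subunits 0.64 and 0.47. Over all 14057 protein-coding genes tested the values were 0.25 and 0.21. Among all genes with 600 to 1000 bp of coding sequence the median log2 difference in wild type was -0.18 (2570 genes), and -0.04 in the 18 members of that size. Among genes of 1000 to 1600 bp it was 0.00 (3779 genes), and 0.22 in the 14 members. The median of the members lay above that of genes of like length in both ranges. The part of length in the difference between core and regulatory particle was not tested. Psmb2, with 603 bp, had the shortest coding sequence of the 34.

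**Figure D4:**
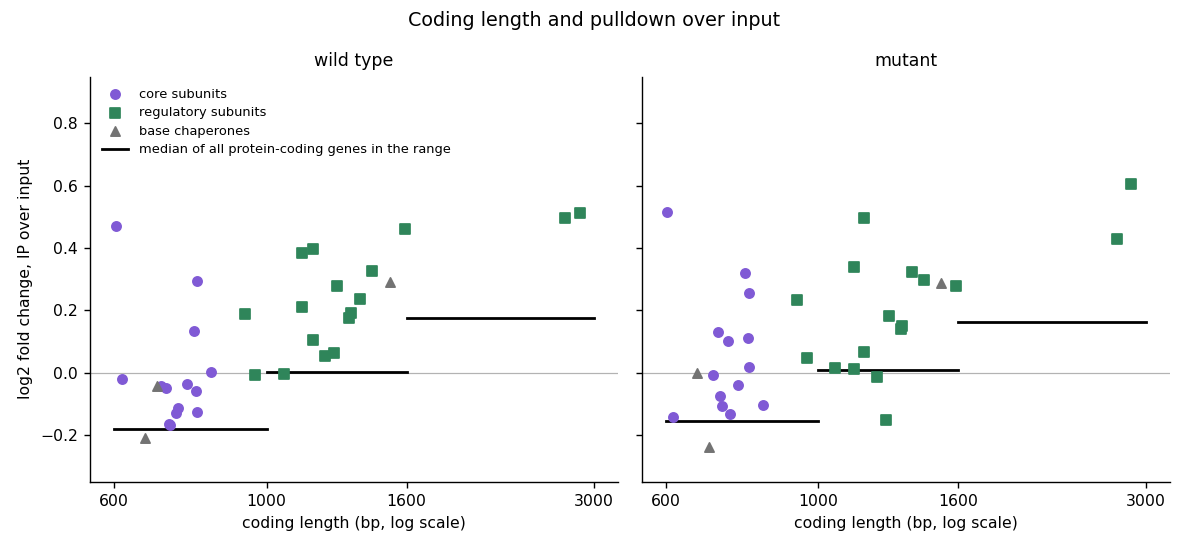
Log2 fold change of IP over input (y axis) against coding length (x axis, log scale) for the subunits and chaperones in each genotype, with the median of all protein-coding genes of each length range as black lines. Core subunits (circles) sit between 600 and 1000 bp and most regulatory subunits (squares) between 1000 and 1600 bp, and Psmb2, at the left edge, lies far above the line.

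In bulk samples such as these, fewer cells of a type and less RNA per cell cannot be told apart, and input mixes D1 neurons with glia and other neurons. Summed microglial markers were 2.62 to 4.75 CPM in WT_IP and 87.6 to 150.0 in WT_Total, and oligodendrocyte markers 143 to 215 and 2558 to 3449. The part of these cells in the differences of the subunits was not tested.

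The other genes of the pathway were taken from lists of known function, and their counts are to be read beside the 21.8% (wild type) and 20.9% (mutant) of all genes called higher in IP. The shuttle factors, which carry ubiquitin-marked proteins to the proteasome, had 5 of 6 higher in IP in wild type and 4 of 6 in the mutant. Ubqln2, a ubiquilin, rose most, from 204 ± 20.5 CPM in WT_Total to 374 ± 22 in WT_IP (SD, n = 6), by 0.87 ± 0.07 on the log2 scale (SE, adjusted p = 6.2e-11). Ddi2, a protease that also activates Nfe2l1, rose by 0.66 and Ubqln1 by 0.32. Of 7 ubiquitin enzymes and adaptors that bind the proteasome, 5 rose and 1 fell in each genotype. The ligase Ube3c rose by 0.69 and 0.87, the deubiquitinase Usp14 by 0.67 and 0.69, and Ecpas, a proteasome adaptor, by 0.47 and 0.30. The 1 that fell, named after its value was seen, was Txnl1, a thioredoxin-like protein, at -0.51 and -0.48. Adrm1, the ubiquitin receptor of the base that has no Psmd symbol, rose by 0.40 and 0.46. Sem1, a small lid subunit, was -0.10 and -0.07 and not called. Vcp, the segregase p97, rose by 0.50 and 0.58.

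Uba1, the main E1 enzyme that activates ubiquitin, rose by 0.46 (wild type) and 0.37 (mutant). Rps27a, which encodes ubiquitin fused to a ribosomal protein, fell by 1.06 and 1.12.

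The 3 inducible subunits kept out of the 37 fell together. Psmb10 stood at 2.59 ± 1.58 CPM in WT_IP and 6.37 ± 1.84 in WT_Total (SD, n = 6; log2 difference -1.32 ± 0.38, adjusted p = 0.0056). Psmb9 and Psmb8 were at most 0.633 CPM in any IP library, with 0 to 56 reads. Their log2 differences were -3.12 and -2.75 in wild type. Each of the 8 microglial markers averaged under 1 CPM in WT_IP and in KO_IP, where their sum was 1.33 to 4.75 CPM. The part of microglial RNA in these values was not tested. The activators Psme1, Psme2 and Psme4 also fell, by 0.44, 0.43 and 0.44 in wild type, while Psme3 and the inhibitor Psmf1 were not called. Of 5 chaperones of core assembly, Psmg3 was lower in wild type (-0.67) and 0 were called in the mutant.

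The 2 transcription factors of proteasome genes parted. Nfe2l1 stood at 136 ± 15.0 CPM in WT_IP and 121 ± 11.7 in WT_Total (SD, n = 6) and was not called, at 0.17 and 0.12. Nfe2l2 stood at 1.02 ± 0.41 CPM in WT_IP and 17.4 ± 2.07 in WT_Total (SD, n = 6). It fell by 4.07 in wild type (adjusted p = 7.4e-12) and by 4.00 in the mutant.

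Mutant and wild type were then compared within each assay. In IP, 0 of 35 members were called by edgeR's quasi-likelihood test, beside 0.0553% of the 14456 genes tested. An unadjusted p under 0.05 was found for 3 of the 35 members and for 1102 of the 14456 genes. DESeq2 and limma-voom also called 0. The smallest adjusted p was 0.53, for Psma6. The authors' deposited table gave an adjusted p for 34 members and 0 were under 0.05, and the smallest was 0.288, again for Psma6.

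The values of the core lay mostly on 1 side. Log2 differences of mutant to wild type were positive in 11 of 14 core subunits, with a median of 0.13, and in 7 of 7 of the alpha ring (0.02 to 0.22). In the regulatory particle 11 of 17 were positive, with a median of 0.03, beside 0.00 over all genes tested. Summed core subunits held 1076 to 1216 CPM in WT_IP (median 1108), and 1213, 1253, 1208, 1208 and 1256 CPM in KO_IP animals 2, 3, 9, 10 and 11. The groups overlapped, since wild-type animals 1 (1214) and 4 (1216) reached the mutant range. The core median lay between 0.09 and 0.17 in all 17 alternatives. The alpha ring median lay between 0.105 and 0.189 in the same 17, though without the 4 animals with cortical markers 5 of 7 of its members were positive. No single subunit passed the test, so none is called changed.

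The 5 members with the smallest p in IP were all core subunits, and are given as values. Psma6 ranged from 93.0 to 123 CPM in WT_IP (median 113) and stood at 118, 129, 144, 121 and 134 in KO_IP (0.22 ± 0.08, SE, unadjusted p = 0.0126). Psmb4 ranged from 152 to 191 (median 161) and stood at 179.6, 204, 181, 183 and 197 (0.19 ± 0.08, adjusted p = 0.605). The groups of both overlapped. Psma7, Psma5 and Psmb1 had differences of 0.21 ± 0.10, 0.20 ± 0.10 and 0.15 ± 0.08, with adjusted p of 0.648 to 0.674. Psmb2 and Psmd1, both among the 3 highest in IP over input in each genotype, differed by -0.02 and 0.03 between genotypes.

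**Figure D5:**
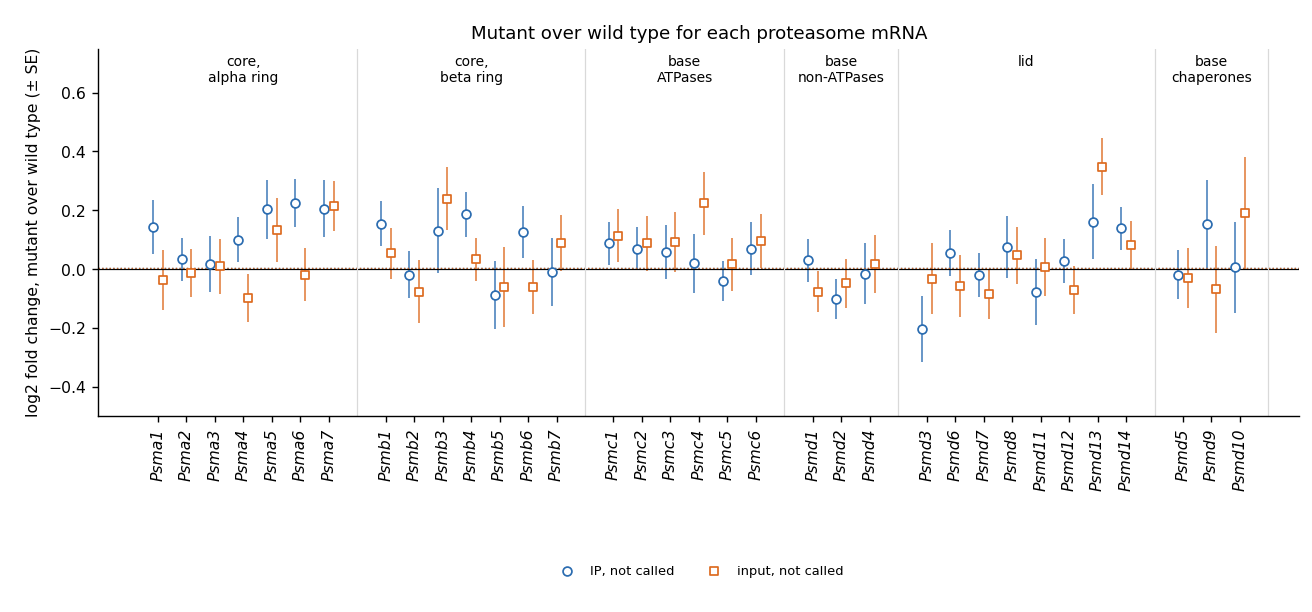
Log2 fold change of mutant over wild type (y axis, ± SE) for each tested subunit and chaperone, by subcomplex, in IP (circles) and input (squares). No point is called, the 7 IP circles of the alpha ring lie between 0.02 and 0.22, and the input value of Psmd13 is the highest at 0.35.

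In input, 0 of 35 members were called, beside 0.0183% of 16429 genes. An unadjusted p under 0.05 was found for 4 of the 35 members and for 1123 of the 16429 genes. DESeq2 and limma-voom called 0 here too. The core median was 0.00 (7 of 14 positive) and the regulatory median 0.02 (11 of 17). The lid subunit Psmd13 (ENSMUSG00000025487, chr7:140881968-140898643) had the smallest p. It ranged from 25.8 to 32.4 CPM in WT_Total (median 31.0) and stood at 37.7, 42.5, 37.7, 34.6 and 41.8 in KO_Total. It was the 1 member whose genotypes did not overlap in input, and none separated in IP. How many of all genes tested separate in this way was not counted, so the separation is given as a value only. The difference was 0.35 ± 0.10 (SE, unadjusted p = 0.0020, adjusted p = 0.456), and the authors' deposited table gave it an adjusted p of 0.0704. Of its exon bases 10.1% overlap Sirt3, whose reads cannot be told apart here. In IP its groups overlapped, at 28.7 to 44.5 CPM in wild type and 32.9 to 50.1 in the mutant. The next were Psma7 (0.21 ± 0.09), Psmb3 (0.24 ± 0.11), Psmc4 (0.22 ± 0.11) and Psmc1 (0.11 ± 0.09), with adjusted p of 0.638 to 0.875. The 6 ATPases were all positive in input, with a median of 0.09, and 0 were called.

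Whether the ratio of IP to input differed by genotype was tested as an interaction over all 22 libraries. Of the members 0 of 35 were called, beside 0% of 17311 genes by edgeR's quasi-likelihood test. Over all genes 710 had an unadjusted p under 0.05, and DESeq2 called 5. The members with the smallest p were Psma6 (0.23 ± 0.12), Psma4 (0.19 ± 0.11) and Psmc4 (-0.22 ± 0.15), each with an adjusted p of 1.00 by edgeR. The calls of Psmb5, Psmd3 and Psmd11 in wild type alone and of Psma4 in the mutant alone were thus not shown to differ between genotypes. Of the other pathway genes 0 were called in either genotype comparison or the interaction.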

How the data were processed

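Per the submitters' processing notes, the authors used STAR, featureCounts and DESeq2 with the mm10 genome, with versions and settings not given in the sources used here. They deposited whole-number read counts per gene symbol for each assay and, for each, a table of wild type against mutant. Per the file headers those tables hold log2 fold changes and p-values, and their sign was turned to mutant over wild type. Fold changes in the text were recomputed from the deposited counts with edgeR 4.0.16 in R 4.3.3 (TMM scaling, filterByExpr, robust quasi-likelihood test, Benjamini-Hochberg over all genes, 0.05). Genotypes were compared within the 11 libraries of an assay. IP against input and the interaction were fitted over all 22. Log2 CPM used a prior count of 2. DESeq2 1.42.0, limma 3.58.1 (voom), RLE scaling, other filters, the replicate block and leaving out animals were alternatives.

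Positions, exon lengths and overlaps came from GENCODE vM21 (GRCm38), which held all 55341 symbols, and promoters from RefSeq (GRCm38.p6). Nothing in the labels says how animals were bred, so p-values of the genotype comparisons measure the spread between these 11 animals. Those of IP against input and of the interaction come from 22 libraries taken as separate. That main fit does not pair the IP and input of an animal, and only the replicate block does. Animal numbers pair each IP with its own input, since the labels' protocols take both from 1 lysate. Deviations of same-numbered libraries correlated at 0.247 to 0.523 over 8299 genes in 11 of 11 pairs. The fits were tested on simulated counts.

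The members and lists were chosen with earlier results of these data known. Named members are all those called or, with fewer than 5 calls, the 5 smallest p in a genotype comparison (3 for the interaction), the 4 largest called differences of IP to input, the 3 highest and lowest per kilobase, those under the filter, and per pathway list up to 3 by p. Other members are named for their role, chosen after their values were seen. 1 gene of a pathway list is not reported here.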

Additional observations from a re-analysis of the deposited data

Results flagged for a closer look

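In 4 of 70 groups of values of single members, 1 animal stood apart from the rest of its group by its gap to the nearest value, and chance alone flags about 1 group in 20. Psma4 in WT_IP was highest in animal 1, at 105 CPM against a group median of 84.7. Psmb2 in WT_IP was highest in animal 13, at 87.5 CPM against 78.4. Psmb3 in KO_Total was lowest in animal 9, at 22.5 CPM against 29.7. Psmd13 in WT_Total was lowest in animal 4, at 25.8 CPM against 31.0. Animals 1 and 9 are among the 4 with raised cortical markers. The wild-type rise of Psmb2 in IP stayed called in all 19 alternatives, with log2 values of 0.40 to 0.54.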

How the results depend on the processing

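In all 189 recomputations the number of members called stayed within 1.5 times the number given (0 stayed 0), or the difference between the regulatory and core medians moved by less than 1 SD between animals. In input the genotype medians were 0.07 (core) and 0.02 (regulatory) without animals 1, 3, 9 and 12, so that small difference changed sign. In wild type 9 to 14 members were called and in the mutant 8 to 11. Such counts do not show which members were called or in which direction. With RLE scaling, and with DESeq2, 9 of the 12 wild-type calls were kept and 2 members were called lower. With the replicate block, which pairs IP and input of 1 animal, 13 were called in wild type, adding Psmc1, and 11 in the mutant, adding Psmb5. It lost no call of a member. Without animals 1, 3, 9 and 12 the wild-type count was 9, with Psmb5, Psmd11 and Psmd14 lost. Sem1 in the mutant, not called at -0.07, turned to 0.0271 without animal 10 (adjusted p = 0.888, edgeR) and lay between -0.1562 and 0.0271 over the animals left out. Among the genes named by rule, 18 recomputations lost and 8 gained a call, most often for Ufd1 and Psme1. The cause was not tested. Psma8 and Psmb11, with at most 26 reads in a library, fell below the low-count filter, so the main fits tested no difference for them.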
